A study of Mus musculus with 6 samples.

Results

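The 9 genes described here act at the first steps of T-cell receptor (TCR) signaling. Cd3d, Cd3e, Cd3g and Cd247 encode the signaling chains of the receptor complex, Lck and Zap70 encode tyrosine kinases, Lat and Lcp2 encode adaptors, and Ptpn22 encodes a phosphatase. They were chosen by name, with earlier results of these data known, and make up 9 of the 32285 rows of a table of raw RNA-seq counts. All 9 passed the filter on low counts, as did 17307 genes in the whole table. The table holds 6 libraries of splenic CD4+CD25+ regulatory T cells (Tregs) from C57BL/6 mice, 3 labelled WT and 3 labelled KO. The KO cells came from ERCre+Zfp335f/f mice, which carry floxed alleles of the zinc finger gene Zfp335 and a Cre recombinase fused to a mutant estrogen receptor. This Cre stays inactive until tamoxifen is given. The labels do not mention tamoxifen and give the WT animals as littermates of wild type. The methods of the study instead give the controls as ERCre mice, treated with tamoxifen in the same way. By those methods, mice aged 6 weeks were injected 3 times with 100 μL of a solution of 10 mg/mL tamoxifen and were killed on day 7. The sources used here name no promoter that limits this Cre to Tregs, so other cells of the KO mice could lose Zfp335 too. They also do not say whether a library came from a single animal or from several, and p-values therefore measure the spread between these libraries. The comparison asks whether RNA of proximal TCR genes differed between WT and KO Tregs after induced deletion.

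When the TCR binds a peptide on an MHC molecule, Lck phosphorylates the activation motifs of the CD3 chains, including CD3ζ, the product of Cd247. ZAP-70 docks on these motifs, is activated by Lck, and phosphorylates the adaptors LAT and SLP-76 (encoded by Lcp2), on which calcium and Ras signaling complexes assemble. PTPN22, which works with the kinase CSK, removes activating phosphates from Lck and ZAP-70. Tregs depend on TCR signals for their development in the thymus and for their suppressive activity in the periphery. RNA-seq measures the transcripts of these genes, and neither the proteins nor their phosphorylation were measured here.

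The libraries held between 133283969 and 209041812 counts, and each of the 9 genes had between 25531 and 216425 counts in every library. Levels are given as CPM, the counts of a gene relative to the total of its library, with that total scaled by the TMM factors of edgeR (0.987 to 1.014). In keeping with the labels, the KO libraries held 14.8 ± 0.451 CPM of Zfp335 and the WT libraries 120.1 ± 4.67 CPM (mean ± SD of 3 libraries each). The Treg genes Foxp3 and Il2ra, the latter encoding CD25, were present in every library at 1046 CPM or more and 428 CPM or more, and both fell slightly (log2 fold changes of -0.11 and -0.15, edgeR adjusted p of 0.0163 and 0.0066). Of the other Treg markers read, Ctla4 rose from 410.3 ± 9.03 to 645.3 ± 8.93 CPM (log2 fold change 0.65, edgeR adjusted p = 9.56e-09), and Ikzf2 (-0.091) and Cd4 (0.032) did not pass the test. The 5 markers summed to 3044 to 3089 CPM in WT and 3139 to 3191 CPM in KO. Markers of other cells were at low levels and differed between the groups. Of 24 such genes, 18 were lower and 0 were higher in KO, and their summed level was 183.4 to 185.0 CPM in WT and 85.2 to 86.0 CPM in KO. Most of that difference lay in the B cell, myeloid and red cell genes, whose sums in KO were 25.7 to 26.9, 20.3 to 22.1 and 1.81 to 2.31 CPM, against 50.9 to 56.0, 43.0 to 51.0 and 36.5 to 43.4 CPM in WT. Of the 6 myeloid genes, 5 were called lower. The other, Csf1r, went from 8.80 ± 1.02 CPM in WT to 10.3 ± 0.596 CPM in KO and did not pass the test (edgeR adjusted p = 0.0821), with all KO libraries above all WT libraries. The CD8 T cell genes summed to 8.34 to 9.71 CPM in WT and 8.62 to 8.65 CPM in KO. Natural killer cell genes summed to 17.4 to 18.6 CPM in WT and 14.7 to 16.6 CPM in KO, and gamma-delta T cell genes to 15.5 to 17.4 and 11.1 to 12.0 CPM. Called lower in KO were 0 of 2 CD8, 1 of 4 natural killer and 2 of 2 gamma-delta genes. What any of these other cells, B cells and myeloid cells included, added to the levels of the 9 genes was not tested. Xist, the RNA of the inactive X chromosome, was at 0.187 to 0.424 CPM in WT and at 123.9 to 144.7 CPM in KO, while the Y-linked genes Ddx3y, Kdm5d, Uty and Eif2s3y were counted in all 6 libraries and 3 of the 4 were lower in KO. The labels give no sex. Since Xist separated the groups, effects of the sex of the animals and of the genotype cannot be told apart. None of the 9 genes lies on a sex chromosome.

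The proximal TCR genes differed little between WT and KO Tregs (plot of CPM by library). Zap70 was higher in KO by 9.91% and Cd3g fell by 7.85%, and the other 7 genes did not pass an adjusted p of 0.05 in edgeR's quasi-likelihood test across all genes. Among all genes tested, 12.1% were called lower and 12.0% were called higher in KO, so that 1 lower and 1 higher gene of 9 is close to the background. None of the 9 met the cutoffs that the study used for differential genes, at least 1.5-fold with p under 0.05 and adjusted p under 0.1, which 6.95% of all genes tested met. Without adjustment, 3 lower genes (Cd3g, Cd247 and Lcp2) and 1 higher gene (Zap70) had an edgeR p under 0.05, against 17.6% lower and 17.1% higher among all genes tested. The 3 KO libraries were all below the 3 WT libraries for 4 of the 9 genes (Cd3d, Cd3e, Cd3g and Lcp2), against 19.1% of all genes tested. They were all above the WT libraries for Zap70 alone, against 19.3% of all genes tested. The median log2 fold change of the 9 genes was -0.040, and that of all genes tested was -0.0042. The 95% intervals of the 9 changes together spanned -13.9% to 16.1%, so that a 1.5-fold change in either direction was outside the interval of each. In cell populations, a lower share of cells that express a gene and less RNA of it per cell cannot be told apart.

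**Figure D1:**
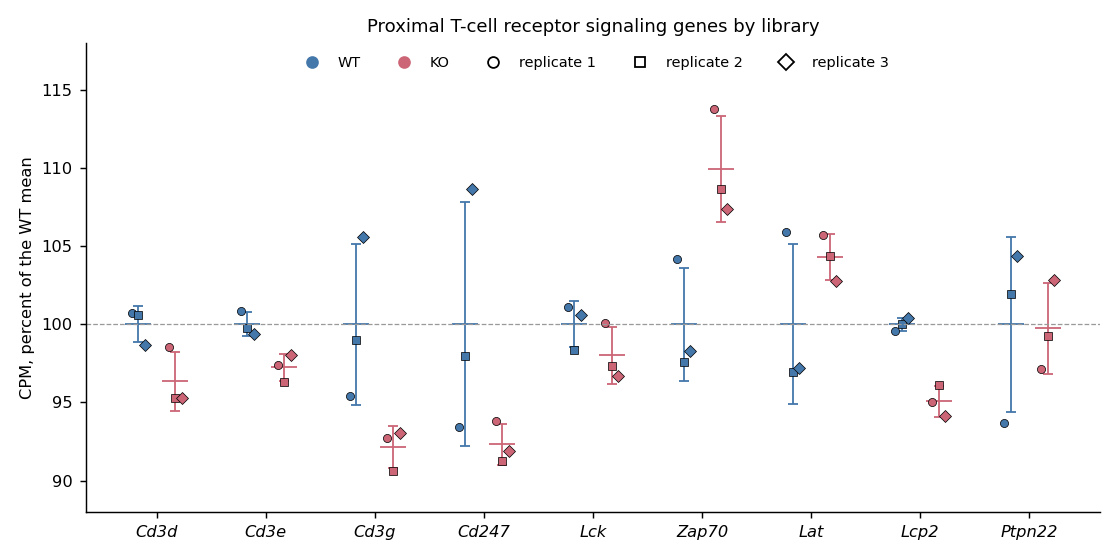
CPM of each gene in the 3 WT and 3 KO libraries, as percent of the WT mean of that gene; the axis does not start at 0. Points are libraries, with the replicate number as the shape, and horizontal and vertical bars are the mean and SD of 3 libraries. Zap70 is the only gene with all KO libraries above all WT libraries, and the WT libraries of Cd3g, Cd247, Lat and Ptpn22 are spread more widely than the KO libraries.

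The genes of the CD3 chains were considered first. Cd3g, encoding the γ chain that pairs with CD3ε, is on the minus strand of chromosome 9 (GRCm38, 44969572 to 44980431). Its level was 324.5, 336.8 and 359.1 CPM in WT replicates 1, 2 and 3 and 315.4, 308.2 and 316.6 CPM in KO replicates 1, 2 and 3. All KO libraries were below all WT libraries, and the WT libraries were spread more widely (SD 17.5 CPM) than the KO libraries (SD 4.54 CPM). This amounts to a log2 fold change of -0.12 (standard error 0.038, 95% interval -0.20 to -0.035, adjusted p = 0.0401 by edgeR's quasi-likelihood test). When single libraries were omitted, the call was kept in 1 of 6 fits, that without WT replicate 1 (log2 fold change -0.15, adjusted p = 0.00211). Without WT replicate 2, WT replicate 3, KO replicate 1, KO replicate 2 or KO replicate 3 the log2 fold change was -0.12, -0.077, -0.12, -0.11 and -0.12, and the adjusted p was between 0.0940 and 0.171.

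Cd3d, encoding the δ chain that also pairs with CD3ε, is on the plus strand of chromosome 9 (44981786 to 44987339) and starts 1355 bp from the start of Cd3g. Its level was 247.5, 247.3 and 242.6 CPM in WT and 242.2, 234.2 and 234.2 CPM in KO. The KO libraries lay just below the WT libraries, with a gap smaller than the SD of either group. Cd3d had a log2 fold change of -0.054 (95% interval -0.12 to 0.014, edgeR adjusted p = 0.254). Cd3e, encoding the ε chain present in both CD3 dimers, lies on the minus strand of the same chromosome (44998740 to 45009627), and all 3 genes fall within 40056 bp. Its level was 308.5, 305.0 and 303.9 CPM in WT and 297.7, 294.6 and 299.8 CPM in KO. Again the KO libraries were below the WT libraries, but the log2 fold change of Cd3e was -0.040 and did not pass the test (95% interval -0.11 to 0.024, edgeR adjusted p = 0.377). An annotated antisense gene, Gm48719, shares 3.31% of its exonic bases.

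Cd247 encodes the ζ chain, which carries the most activation motifs of the complex, and is on the plus strand of chromosome 1 (165788681 to 165877277). Its level was 278.8, 292.3 and 324.2 CPM in WT and 279.9, 272.4 and 274.2 CPM in KO. The groups overlapped, since WT replicate 1 was below KO replicate 1, and WT replicate 3 was well above the other 5 libraries. Its log2 fold change of -0.11 (standard error 0.047, 95% interval -0.22 to -0.013) did not pass the test (edgeR adjusted p = 0.0989). Cd247 passed the test without WT replicate 1 (-0.16, adjusted p = 0.00421), and its log2 fold change was -0.051 (adjusted p = 0.323) without WT replicate 3. Of its annotated exonic bases, 56.4% (3007 bp) are also exonic in Pou2f1, a transcription factor gene on the opposite strand. Pou2f1 was named after its values were seen. It rose in KO from 65.6 ± 2.82 to 75.5 ± 3.64 CPM (SD, n = 3), with a log2 fold change of 0.20 (edgeR adjusted p = 0.00561). No source used here says whether the counting used strand, and how reads in the shared bases were assigned was not tested.

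Together, Cd3d, Cd3e, Cd3g and Cd247 summed to 1159, 1181 and 1230 CPM in the WT libraries and to 1135, 1109 and 1125 CPM in the KO libraries. All 4 log2 fold changes were below 0, as were 8794 of the 17307 genes tested. Their median was -0.084, and 1 of the 4 passed the test. The ratio of Cd3g to Cd3e was 1.11 ± 0.0652 in WT and 1.05 ± 0.00681 in KO (SD, n = 3), and the ranges overlapped. Likewise the ratios of Cd3d to Cd3e and of Cd247 to Cd3e overlapped between the groups, with means of 0.804 and 0.976 in WT and 0.796 and 0.926 in KO.

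The α and β chains of the receptor itself were described by their constant regions. Trac, the α constant region, was 526.3, 516.0 and 558.2 CPM in WT and 507.2, 491.4 and 501.8 CPM in KO, so that the KO libraries were below the WT libraries. Its log2 fold change of -0.093 did not pass the test (edgeR adjusted p = 0.0770) but did under 5 of 17 alternatives. These were the fit without WT replicate 1 (-0.10, adjusted p = 0.0295), DESeq2 (adjusted p = 0.0461), upper-quartile scaling (adjusted p = 0.0425), library size only (adjusted p = 0.0198) and removal of the GC trend (adjusted p = 0.0448). Trbc1 and Trbc2, the β constant regions, had log2 fold changes of -0.027 and -0.0032 (95% intervals -0.12 to 0.068 and -0.10 to 0.095), with overlapping groups. Trbc1 and Trbc2 are near-identical copies, and how their shared reads were divided is not given in the sources used here.

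The kinases were Lck and Zap70. Lck, the Src family kinase that is bound to the coreceptors CD4 and CD8, is on the minus strand of chromosome 4 (129548344 to 129573641) and had the highest CPM of the 9 genes. Its level was 1084, 1055 and 1079 CPM in WT and 1073, 1044 and 1037 CPM in KO, with overlapping groups. Lck had a log2 fold change of -0.029 (95% interval -0.096 to 0.038, edgeR adjusted p = 0.558), and in percent the interval ran from -6.42 to 2.66. Cd4, the coreceptor gene, averaged 687.4 ± 8.38 CPM in the WT libraries and 702.9 ± 11.9 CPM in the KO libraries (SD, n = 3), with a log2 fold change of 0.032 (edgeR adjusted p = 0.507).

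Zap70 is on the plus strand of chromosome 1 (36761798 to 36782818). Its level was 373.3, 349.7 and 352.4 CPM in WT and 407.8, 389.5 and 384.8 CPM in KO. The lowest KO library was above the highest WT library, and within each group replicate 1 was the highest. For Zap70 this gave a log2 fold change of 0.14 (standard error 0.037, 95% interval 0.057 to 0.22, adjusted p = 0.0155 by edgeR's quasi-likelihood test), the largest in size among the 9 genes. Of all genes tested, 53.5% had a larger change in either direction, and that share covers genes at every level that passed the filter. A narrower set held 869 tested genes with a mean log2 CPM of 5 or more and 56% to 60% transcript GC. This set includes Zap70, whose log2 fold change of 0.136 lay above the upper quartile (quartiles -0.039 and 0.124). Zap70 stayed past the threshold in 3 of 6 fits with 1 library left out, and its log2 fold change stayed between 0.11 and 0.17. The call was lost without WT replicate 2 (0.12, adjusted p = 0.0924), KO replicate 1 (0.11, adjusted p = 0.0916) and KO replicate 2 (0.15, adjusted p = 0.0512).

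Since Lck did not pass the test and Zap70 rose, their ratio was compared within each library. Counts of Zap70 were 0.344, 0.332 and 0.327 times those of Lck in WT and 0.380, 0.373 and 0.371 times in KO, without overlap. The mean ratio was 0.334 ± 0.00915 in WT and 0.375 ± 0.00462 in KO (SD, n = 3), higher by 12.2%. The ratio of Zap70 to Cd3g moved further, from 1.06 ± 0.0860 to 1.26 ± 0.0391, and was higher by 19.2% without overlap. Every KO library was already above every WT library for Zap70 and below every WT library for Cd3g. The lack of overlap and the larger shift of this ratio therefore follow from the changes of its genes and are no separate result. With the trend on transcript GC content removed, both changes were smaller and Cd3g no longer passed the test. The ratio itself was not read with that trend removed. The ratios to Lck and to Cd3g do not depend on the scaling of the libraries and are given as a description.

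**Figure D2:**
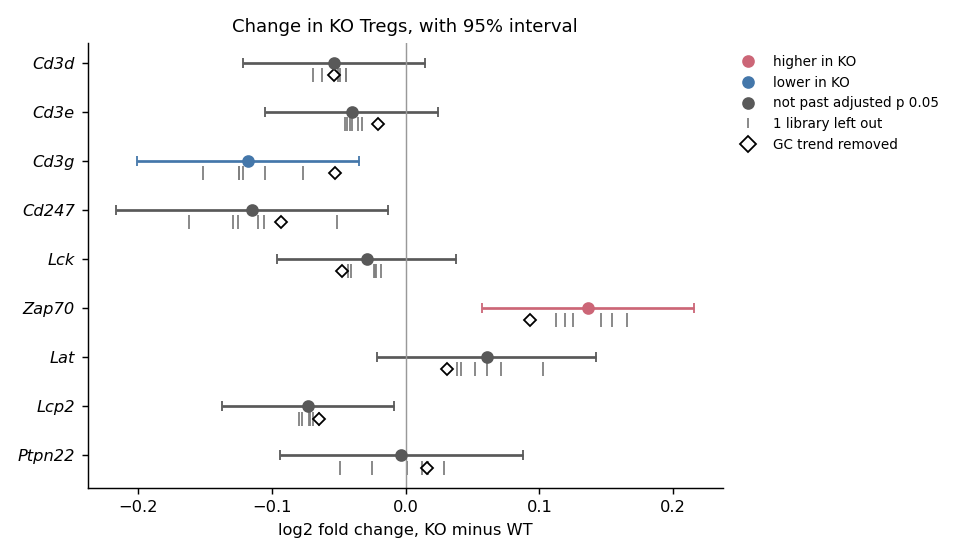
Log2 fold change of each gene in KO relative to WT on the horizontal axis, with the 95% interval of edgeR's quasi-likelihood fit as a bar. Grey ticks are the values with 1 library left out and open diamonds the values with the trend on transcript GC content removed. Zap70 lies to the right of 0 under all of these settings and Cd3g to the left, at 0.093 and -0.053 once the GC trend was removed, while the values of Ptpn22 fall on both sides of 0.

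The genes closest to Zap70 over the 6 libraries were sought among the 5739 tested genes whose average log2 CPM was 5 or more. Likeness was the root mean square difference of log2 CPM, after each gene was centred on its own mean. The 3 closest were Zswim8 (difference 0.00748), Cluh (0.0103) and Rps9 (0.0112). Zswim8, encoding a substrate receptor of a ubiquitin ligase, was 269.8, 251.2 and 251.8 CPM in WT and 290.2, 278.1 and 274.5 CPM in KO. Rps9, encoding a ribosomal protein, was 1308, 1248 and 1232 CPM in WT and 1430, 1378 and 1368 CPM in KO. As in Zap70, replicate 1 was the highest library of its group in both.

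The adaptor genes moved in opposite directions, and neither passed the test. Lat is on the minus strand of chromosome 7 (126363824 to 126369570) and was 790.5, 723.4 and 725.3 CPM in WT and 789.0, 779.0 and 767.2 CPM in KO. The highest of the 6 values belonged to WT replicate 1, and the other WT libraries were below all KO libraries. Lat had a log2 fold change of 0.061 (95% interval -0.021 to 0.14, edgeR adjusted p = 0.287), and it passed the test without WT replicate 1 (0.10, adjusted p = 0.00987).

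Lcp2, encoding SLP-76, is on the plus strand of chromosome 11 (34046920 to 34092295) and was 399.4, 401.2 and 402.8 CPM in WT and 381.2, 385.5 and 377.5 CPM in KO. Its libraries varied little within groups (SD 1.66 CPM in WT and 3.97 CPM in KO), and the groups did not overlap. The log2 fold change of -0.073 did not pass the test over all genes (standard error 0.030, 95% interval -0.14 to -0.0086, edgeR adjusted p = 0.0975). It passed with DESeq2 (adjusted p = 0.0388) and without WT replicate 1 (log2 fold change -0.077, adjusted p = 0.0470). The annotated gene 4930469K13Rik on the opposite strand shares 6.32% of the exonic bases of Lcp2. The ratio of Lat to Lcp2 was 1.98, 1.80 and 1.80 in WT and 2.07, 2.02 and 2.03 in KO, higher by 9.78% without overlap. Lcp2 alone already separated the groups. With the trend on transcript GC content removed, the log2 fold changes were 0.031 for Lat and -0.064 for Lcp2. This ratio was not read with that trend removed and is given as a description.

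Ptpn22 is on the plus strand of chromosome 3 (103859795 to 103912247) and was 170.3, 185.3 and 189.7 CPM in WT and 176.5, 180.4 and 187.0 CPM in KO. The groups overlapped throughout, and the lowest and the highest value both belonged to WT. With -0.0031, Ptpn22 had the smallest log2 fold change in size of the 9 (edgeR adjusted p = 0.968), and in percent its 95% interval ran from -6.32 to 6.28. Csk, the kinase that inhibits Lck, averaged 524.7 ± 12.9 CPM in the WT libraries and 499.6 ± 20.4 CPM in the KO libraries (SD, n = 3), with a log2 fold change of -0.071 (edgeR adjusted p = 0.192). With the trend on transcript GC content removed, Csk passed the test (-0.12, adjusted p = 0.0213). The ratio of Ptpn22 to Csk was 0.347 ± 0.0202 in WT and 0.364 ± 0.0246 in KO, with overlapping ranges.

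All 9 genes were among the more highly expressed genes of these cells, between the 93.1st and the 99.5th percentile of average CPM over all genes tested. To order the genes by level, CPM were divided by the exonic length of the basic transcripts of GENCODE in kilobases. Lat was the highest on this scale (612 CPM per kilobase over the 6 libraries), followed by Lck (458), Cd3g (319), Cd3e (206), Zap70 (168) and Cd3d (149). Lower levels were found for Lcp2 (93.4), Ptpn22 (66.2) and Cd247 (63.0 CPM per kilobase), and only the ranges of the latter pair overlapped. This order rests on the choice of transcripts. With all annotated exons, Lck (362) came before Lat (276), Cd3d (133 CPM per kilobase) took the third place and Cd3g the fifth. The order of WT and KO libraries within a gene does not depend on this choice.

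**Figure D3:**
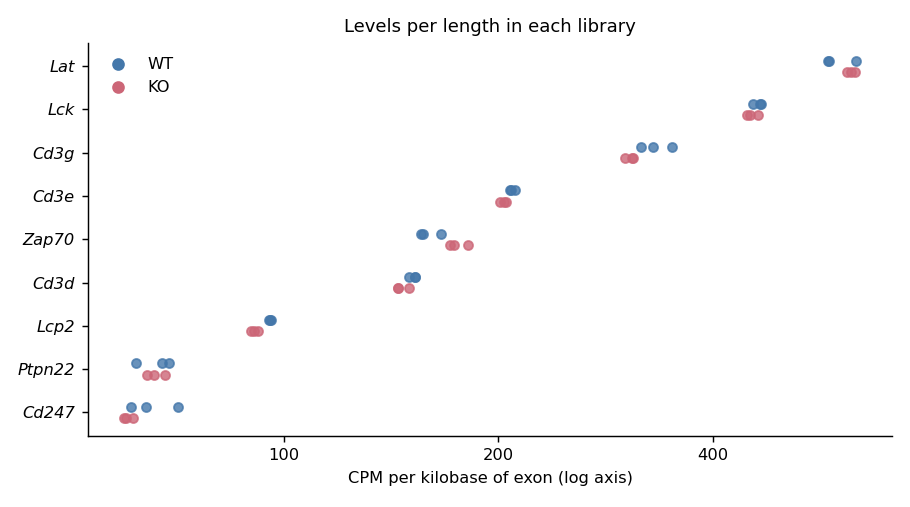
Level of each gene in the 3 WT and 3 KO libraries, as CPM per kilobase of basic GENCODE exons on a log axis, in the order of the mean over the 6 libraries. The genes are spread over a far wider range, from 59.8 for Cd247 to 635 for Lat, than the libraries of any gene.

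For the 2 genes that passed the test, and for the CD3 gene that starts beside 1 of them, the promoters are shown as RefSeq gives them in GRCm38.p6, 250 bases before and 50 bases from the start site, 5′ to 3′ on the strand of the gene. Capitals mark the letters GGAAG or CTTCC, called the ETS letters here, and CACCTG or CAGGTG, an E-box, on either strand. Neither of these is contained in the other. The ETS letters hold the shorter core GGAA of ETS family factors, and that core was not counted on its own.
Cd3g, chr9:44980382-44980681, minus strand: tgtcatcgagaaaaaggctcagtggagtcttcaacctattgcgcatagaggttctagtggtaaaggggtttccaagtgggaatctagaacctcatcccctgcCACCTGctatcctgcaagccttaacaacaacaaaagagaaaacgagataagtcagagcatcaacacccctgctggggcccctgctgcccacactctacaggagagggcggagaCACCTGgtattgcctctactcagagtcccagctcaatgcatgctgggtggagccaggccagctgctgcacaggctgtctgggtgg
Cd3d, chr9:44981536-44981835, plus strand: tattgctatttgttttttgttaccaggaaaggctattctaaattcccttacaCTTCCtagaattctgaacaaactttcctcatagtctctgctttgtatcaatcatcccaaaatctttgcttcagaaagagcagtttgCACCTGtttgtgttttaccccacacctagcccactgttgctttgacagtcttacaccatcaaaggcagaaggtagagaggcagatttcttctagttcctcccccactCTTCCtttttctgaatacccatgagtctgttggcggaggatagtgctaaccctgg
Zap70, chr1:36761548-36761847, plus strand: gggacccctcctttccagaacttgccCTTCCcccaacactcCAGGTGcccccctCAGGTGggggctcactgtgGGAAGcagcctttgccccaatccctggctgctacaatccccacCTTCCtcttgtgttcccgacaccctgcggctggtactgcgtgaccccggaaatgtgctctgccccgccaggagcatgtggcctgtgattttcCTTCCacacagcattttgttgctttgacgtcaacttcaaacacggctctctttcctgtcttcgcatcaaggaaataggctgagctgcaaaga
The Zap70 window holds 4 matches of the ETS letters and 2 E-boxes, and the Cd3d window 2 matches and 1 E-box. The Cd3g window holds 2 E-boxes and no match of the ETS letters, though the shorter GGAA occurs in it. Over the 9 genes, 8 promoters hold the ETS letters, as do 71.4% of the 32851 promoters of the same length in the table. The E-box is in 6 of the 9 and in 20.2% of all promoters. The letters TGTGGT or ACCACA, bound by RUNX factors, are in 2 of the 9 (Lck and Lat) and in 16.8% of all promoters. The letters TATAAA or TTTATA, those of a TATA box, are in 13.6% of all promoters and in the Ptpn22 window, there 16 bases after the start site and on the opposite strand. Each match is a description of the letters, and binding was not measured here.

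The changes of the 9 genes ran with the GC content of their transcripts (plot of change against GC content). The longest transcript of Cd3g had the lowest GC content (38.5%) and that of Zap70 the highest (59.6%), with Lat next to it (57.5%). Across the 9 genes, the log2 fold change and the GC content had a Pearson r of 0.844 and a Spearman rho of 0.817. These values describe 9 genes measured in the same 6 libraries, and they rest on the choice of transcript. For Cd3g, Cd3e and Lat the longest transcripts (2539, 2550 and 2053 bp) exceed the basic exons used for the levels (1023, 1462 and 1245 bp). The GC content of other transcripts was not read, and the removal of the trend below uses the same GC values. A weaker trend was present across the 5720 tested genes with a GC value and a mean log2 CPM of 5 or more (Spearman rho 0.161). In that set, the median log2 fold change rose from -0.038 below 40% GC to 0.080 above 60% GC. For its removal, the trend was fitted in each library over all 17082 tested genes with a GC value, at any level. This fitted trend differed between libraries. At the GC content of Zap70, the fitted deviation on the log2 scale was 0.048, -0.041 and -0.056 in WT replicates 1, 2 and 3, and 0.045, 0.036 and 0.00072 in KO replicates 1, 2 and 3. At the GC content of Cd3g it was -0.049, 0.053 and 0.11 in WT and -0.047, -0.041 and 0.0041 in KO. WT replicate 1 was close to KO replicates 1 and 2 at both GC contents, KO replicate 3 was near 0, and WT replicates 2 and 3 deviated the other way.

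**Figure D4:**
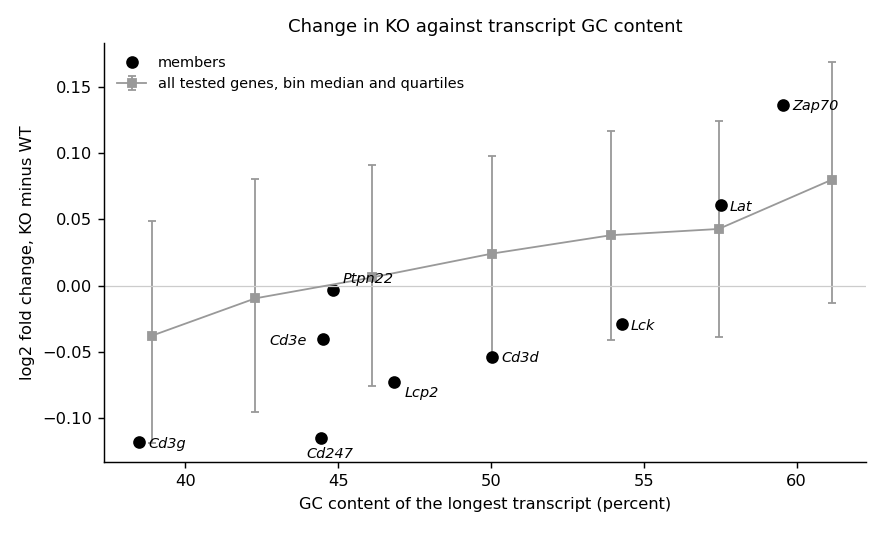
Log2 fold change in KO relative to WT against the GC content of the longest transcript in percent. Black points are the 9 genes, and grey squares with bars are the median and quartiles of all tested genes whose mean log2 CPM was 5 or more, in bins of GC content. Cd3g (38.5% GC) and Zap70 (59.6% GC) stand at the ends of the axis, and the bin medians rise from -0.038 to 0.080.

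With the trend fitted in each library removed, Zap70 was still called higher (log2 fold change 0.093, edgeR adjusted p = 0.0149), and Cd3g no longer passed the test (-0.053, adjusted p = 0.160). The value of Cd247 became -0.093 (adjusted p = 0.0796), that of Lcp2 -0.064 (adjusted p = 0.0701) and that of Lat 0.031 (adjusted p = 0.391). For Ptpn22 the sign turned, to 0.016 (adjusted p = 0.750). With the genes of other cells, haemoglobin, immunoglobulin, ribosomal protein and mitochondrial genes left out before scaling, Zap70 (0.13, adjusted p = 0.0138) and Cd3g (-0.12, adjusted p = 0.0325) were both still called.

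A list of 57 other genes of the TCR pathway was read from the same fit. Of these, 8 were lower and 9 were higher in KO and 40 did not pass the test, again close to the shares among all genes tested. None met the cutoffs of the study, and 12 lower and 14 higher genes had an unadjusted edgeR p under 0.05 (17.6% and 17.1% of all genes tested). The median log2 fold change was 0.016, and the groups did not overlap for 16 genes with KO below WT and 15 with KO above, against 19.1% and 19.3% of all genes tested. Leaving out 1 library at a time gave between 8 and 25 calls, the fewest without KO replicate 2 and the most without WT replicate 1.

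Of the 5 coreceptor and accessory receptor genes, Cd28 alone was called. Cd28, the costimulatory receptor that acts beside the TCR, was 193.8, 202.1 and 206.8 CPM in WT and 272.6, 274.4 and 287.8 CPM in KO. The groups were far apart relative to their SDs of 6.58 and 8.32 CPM. Its log2 change was 0.47 (SE 0.036, edgeR adjusted p = 8.14e-07), the largest in the list, and its call was kept in all 6 fits that left out a library.

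Among 5 further kinases, Fyn rose and Txk fell. Fyn, a Src family kinase that shares substrates with Lck, averaged 629.1 ± 24.1 CPM in the WT libraries and 714.8 ± 2.80 CPM in the KO libraries (SD, n = 3), with a log2 fold change of 0.18 (edgeR adjusted p = 0.00153). Txk, a kinase of the Tec family, averaged 49.8 ± 3.82 CPM in the WT libraries and 43.7 ± 0.749 CPM in the KO libraries, with a log2 fold change of -0.18 (edgeR adjusted p = 0.0212). The call of Fyn was kept whichever library was left out, and that of Txk only without WT replicate 1 (log2 fold changes -0.24 to -0.13, adjusted p up to 0.0930).

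The 21 adaptors and exchange factors included 3 genes that fell and 2 that rose. Skap1, an adaptor that links the TCR to integrin adhesion, was 181.3, 183.6 and 187.9 CPM in WT and 152.9, 153.8 and 153.5 CPM in KO. The SD of its KO libraries was only 0.469 CPM. The log2 change of Skap1 was -0.26 (SE 0.032, edgeR adjusted p = 4.47e-05). Sla2, an adaptor that dampens TCR signaling, fell from 54.1 ± 1.30 to 48.3 ± 0.183 CPM, with a log2 fold change of -0.16 (edgeR adjusted p = 0.00766). Sh3bp2 fell as well (-0.17, adjusted p = 0.0261), and Dok1, an inhibitory adaptor, rose (0.19, adjusted p = 0.0240). The calls of Skap1 and Sla2 were kept in all 6 fits that left out a library. Dok1 was called in 1 of these fits, the fit without WT replicate 1 (0.14 to 0.25, adjusted p up to 0.0908 over the 6). Sh3bp2 was called without WT replicate 1 or WT replicate 2 and not without the other libraries (-0.21 to -0.13, adjusted p up to 0.127). The fifth called gene, Sh2d2a, was outside the rule for named genes and was named after its values were seen.

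Of 14 genes for the next steps of the cascade, 3 rose and 2 fell. Bcl10, a scaffold of the complex that links the TCR to NF-κB, was 70.9, 69.0 and 68.3 CPM in WT and 85.4, 85.0 and 86.7 CPM in KO. For Bcl10 the log2 change was 0.30 (SE 0.035, edgeR adjusted p = 3.38e-05). Orai1, the pore subunit of the store-operated calcium channel, rose from 59.0 ± 0.332 to 67.6 ± 1.78 CPM (log2 fold change 0.20, edgeR adjusted p = 0.00186). Prkcq, encoding protein kinase C-θ upstream of the Bcl10 complex, fell from 392.1, 386.0 and 389.2 CPM in WT to 346.6, 343.0 and 344.9 CPM in KO. For Prkcq it was -0.17 (SE 0.030, edgeR adjusted p = 0.000821). These 3 calls were kept in all 6 fits that left out a library. Plcg1 (higher), and in the group of 9 phosphatases and ubiquitin ligases Ptpn11 and Cblb (higher) and Ptpn6 and Ubash3b (lower), were also named after their values were seen.

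**Figure D5:**
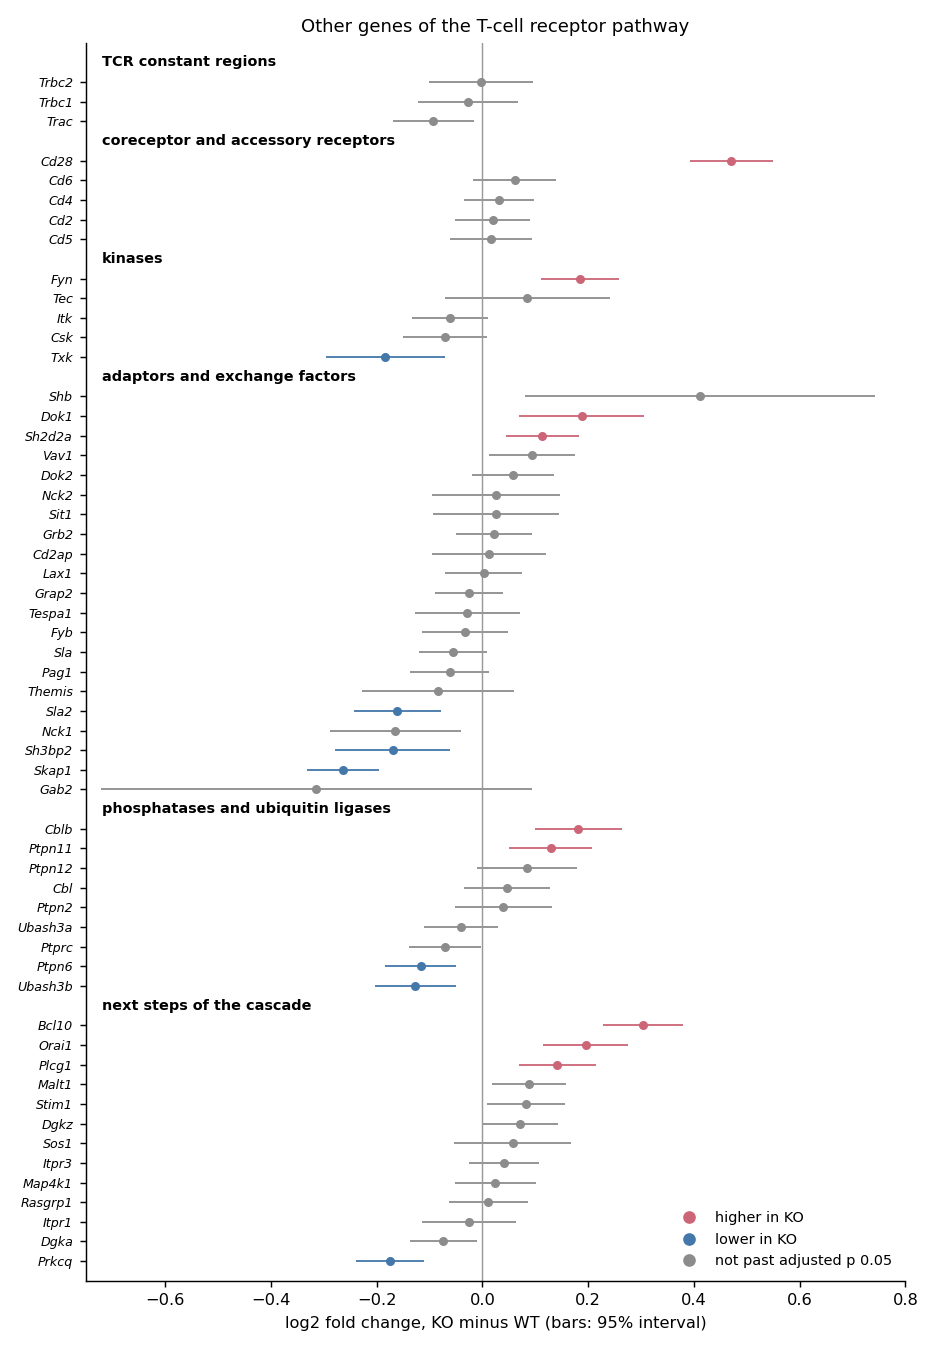
Log2 fold change in KO relative to WT of the other genes of the TCR pathway, grouped by role, with 95% intervals of edgeR's quasi-likelihood fit; 1 of the 57 is not drawn. Red points are the 9 genes called higher, blue points are genes called lower and grey points the 40 that did not pass an adjusted p of 0.05. Cd28 (0.47) and Bcl10 (0.30) lie furthest to the right among called genes, and Skap1 (-0.26) furthest to the left.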

How the data were processed

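Total RNA of sorted splenic CD4+CD25+ Tregs was made into libraries with an Illumina TruSeq kit from 200 ng per sample, per the labels. What the authors deposited are raw counts by gene symbol, 1 column for each of 6 libraries and not normalized between them. HISAT2, DESeq2 and the build mm10 are named in the submitters' processing notes, with no role or order, and the counting tool, annotation and strand setting of this table are not given in the sources used here. The supplemental methods give HISAT2 alignment and StringTie values in TPM, and the cutoffs of the study, for Tregs of Foxp3Cre mice, not for these libraries. All 6 value columns were used. Of 32285 rows, 40 repeat a symbol, and among these the symbol went to the row with most counts.

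Groups came from the labels. In R 4.3.3, the whole table was fitted with edgeR 4.0.16 (filterByExpr, TMM, robust quasi-likelihood F-test) and p-values were adjusted over the 17307 genes tested by the Benjamini-Hochberg method. The threshold for a call was an adjusted p of 0.05. Standard errors and 95% intervals came from the F statistic, and log2 CPM used a prior count of 2. No molecular identifiers are named, so counts are not independent molecules. Replicates of a group differed by more than sampling noise (chi-square per degree of freedom of 11.1 to 49.7) and were kept as 3 samples each. The fit was tested on simulated data. The members and lists were chosen with earlier results of these data known. Named genes were the 9 members, Trac, Trbc1, Trbc2, Cd4, Csk, the 5 largest called changes in each direction without overlap in the pathway list, and the 3 genes most like the member with the largest change. Outside this rule, Xist, the Y-linked genes, Pou2f1 and the remaining called pathway genes were named after their values were seen. Positions, lengths and GC content came from GENCODE M21 (GRCm38, the assembly of mm10), and promoters from RefSeq (GRCm38.p6), where all 9 members matched. GC values were found for 98.7% of the genes tested. Alternatives were other scalings, filters, DESeq2 1.42.0, voom of limma 3.58.1, a replicate block, omission of each library or of other-cell genes, removal of the GC trend, and the cutoffs of the study. A gene of the pathway list is counted but not reported here by name.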

Additional observations from a re-analysis of the deposited data

How the results depend on the processing

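Of the 9 genes, 2 passed an adjusted p of 0.05. The count was 4 with library size only (Cd247 and Lcp2 added, both lower) and 3 with DESeq2 (Lcp2 added, lower). It was 1 with the GC trend removed and 0 with the cutoffs of the study. With 1 library left out it was between 0 and 5. It was 0 without WT replicate 2, KO replicate 1 or KO replicate 2, and 5 without WT replicate 1. Of the 57 pathway genes 17 were called, and 21 with DESeq2 or with the GC trend removed. With 1 library left out that number was between 8 and 25. Fewer samples enter these fits. Ptpn22 turned sign with no filter on low counts (0.00025), with the GC trend removed (0.016) and with 1 library left out (-0.049 to 0.029). Trbc2 turned with no filter (4.5e-05) and with 1 library left out (-0.052 to 0.052), and Trbc1 only with 1 library left out (-0.070 to 0.022); the cause was not tested. The other members kept their direction under every alternative. With library size only, 2575 of all genes were called lower and 1622 higher, against 2088 and 2082 with TMM. Same-numbered libraries were not paired in the main fit, since the labels do not say that they share an animal, litter or day. The correlations of their deviations were 0.052, -0.00997 and -0.0271, and those of other pairs ran from -0.151 to 0.155. With 3 libraries per group these values cannot show that nothing was shared. With a replicate block, 2 members and 19 pathway genes were called.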
